A study of Mus musculus with 16 samples.

Results

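CGE-type GABAergic interneurons are inhibitory neurons with genes of the caudal ganglionic eminence (CGE), and the rule for them took 222 of the 17015 nuclei kept from the microdissected dentate gyrus (DG) of 8 mice. A nucleus was kept with more than 500 and up to about 8900 RNA molecules (UMIs), more than 250 and up to about 3300 genes, under 2.8% of UMIs from mitochondrial genes and 500 or more ATAC counts in peaks. Of the kept nuclei, 314 held 3 or more UMIs over *Gad1*, *Gad2* and *Dlx6os1* and were called GABAergic. The 222 members were those in which the UMIs of *Adarb2*, *Vip*, *Cnr1*, *Npas1* and *Nr2f2* outnumbered those of *Lhx6*, *Sox6*, *Sst*, *Pvalb* and *Satb1*. In 56 GABAergic nuclei the second set led, and these are called MGE-type after the medial ganglionic eminence. In the other 36 neither set led. Of the 222, 31 held fewer than 3 UMIs of *Erbb4*, a gene the rule did not use. In sum, though not in each nucleus, these carried more transcripts of excitatory neurons, as described below. The 13 genes named here chose the members, so their levels are given below as a description without a test.

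The study compared the DG of WT mice (VV) with that of V321L mice (LL), which are homozygous for an exchange of valine for leucine (V321L) in the schizophrenia-related gene *Nrg1*. Each genotype had 4 mice, 2 females (F1, F2) and 2 males (M1, M2), and the exchange is not limited to a cell type, so the V321L interneurons carried it as well. Nuclei of each fresh-frozen DG went into a single 10x Multiome library, in which RNA and accessible chromatin (ATAC) are read from the same nucleus. The study's methods give an age range for its mice as a whole, from juvenile to adult, and the age and strain of the sequenced mice are not stated separately.

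CGE-derived interneurons include cells that make the peptide VIP, basket cells that make cholecystokinin and carry the cannabinoid receptor CB1 on their terminals, and neurogliaform cells that make reelin. In the DG they inhibit granule cells (GCs), the principal excitatory neurons, or other interneurons. Neuregulins are growth factors whose receptor ErbB4 is found in forebrain mainly on interneurons, and *Nrg1* encodes one of its ligands.

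In RNA every WT library was shallower than every V321L library. The WT libraries held 8208031 (F1), 14624265 (F2), 4326426 (M1) and 9650201 (M2) RNA UMIs, and the V321L libraries held 22101446 (F1), 18193620 (F2), 15505354 (M1) and 23582057 (M2). ATAC depth did not follow this order. The WT libraries held 11953485 to 18352665 ATAC counts, V321L F1 and M2 fewer (8039952 and 6580616) and V321L F2 and M1 more (18892690 and 25552769). Among the members, the median UMI count was 4867, 2583, 2055 and 4845 in WT F1, F2, M1 and M2, and 4294, 5818, 5588 and 3903.5 in V321L F1, F2, M1 and M2. The median mitochondrial share of UMIs in the members was 0.0858%, 0.162%, 0.177% and 0.0874% in the WT mice and 0.750%, 0.303%, 0.368% and 1.27% in the V321L mice, so that every V321L mouse was above every WT mouse. The part of depth and RNA quality in the genotype differences below was not tested beyond the alternatives named beside them.

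The number of members per mouse was 25, 27, 14 and 30 in WT F1, F2, M1 and M2 (96 nuclei) and 40, 35, 21 and 30 in V321L F1, F2, M1 and M2 (126 nuclei). A member held 615 to 8775 UMIs (median 4441.5), 456 to 3305 genes (median 2072) and 512 to 51511 ATAC counts (median 2989.5). Of the kept barcode sequences, 171 of 16843 occurred in 2 or more libraries. Of the members' barcodes 2 were also kept in another library, and none was a member in more than 1.

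*Adarb2*, which encodes an RNA-binding protein used as a marker of CGE-derived cells, carried the rule. It supplied 84.4% of the members' UMIs over the 5 CGE genes, *Cnr1* (the CB1 receptor) 10.5%, *Vip* 2.96%, *Npas1* 1.11% and *Nr2f2* (a transcription factor of the CGE) 1.01%. *Adarb2* was seen in 217 members, *Cnr1* in 111, *Npas1* in 45, *Nr2f2* in 43 and *Vip* in 17. In 209 members *Adarb2* held the most UMIs of the 5 genes, and 101 nuclei would not have been members without it. Of the GABA genes, *Gad1* and *Gad2*, the enzymes that make GABA, were seen in 180 and 172 members, and *Dlx6os1*, a noncoding RNA of the Dlx locus, in 165. No UMI of the 5 MGE genes was seen in 171 members.

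The limits of the rule ran through many nuclei. Exactly 3 UMIs over the GABA genes were held by 59 members (29 WT, 30 V321L), and 199 nuclei that otherwise met the rule stood just outside with 2 (69 WT, 130 V321L). The CGE genes led by a single UMI in 11 members (7 WT, 4 V321L), against a lead of 0 in the 36 undecided GABAergic nuclei (26 WT, 10 V321L). The upper limits on UMIs and genes removed 68 nuclei that otherwise met the rule, 11 WT and 57 V321L.

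*Adarb2* was not restricted to interneurons in these libraries. In GC-type nuclei (11223 nuclei with 3 or more UMIs over 8 GC genes and none of the GABA genes) it averaged 2036 CPM (UMIs of a gene per 1000000 UMIs) in WT and 1168 CPM in V321L mice. With each nucleus thinned to 1000 UMIs and shallower ones left out, *Adarb2* was seen in 87.6% of WT and 83.2% of V321L members and in 77.1% of WT and 56.6% of V321L GC-type nuclei (97.1%, 98.5%, 84.2% and 74.2% at full depth). *Erbb4*, which the rule did not use, separated the classes further. In nuclei thinned to 1000 UMIs it was seen in 88.7% of WT and 78.0% of V321L members, against 2.87% and 6.14% of GC-type nuclei (96.5%, 82.7%, 4.34% and 9.19% at full depth).

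At full depth 191 of the 222 members held 3 or more *Erbb4* UMIs, 90 WT and 101 V321L. Their share among the members was 96%, 100%, 92.9% and 86.7% in WT F1, F2, M1 and M2 and 90%, 65.7%, 81.0% and 83.3% in V321L F1, F2, M1 and M2. V321L F2 was the lowest. The other 31 members (6 WT, 25 V321L) carried more transcripts of excitatory neurons. Over their summed UMIs, *Slc17a7*, the vesicular glutamate transporter of excitatory neurons, stood at 354 CPM against 23.1 CPM in the 191, *C1ql3*, a gene of GCs, at 261 against 18.3 CPM, and *Gad2* at 99.3 against 697 CPM. A UMI of *Slc17a7* was seen in 3 WT and 36 V321L members. Where a result named below lost its call or its separation without the 31 nuclei, the value for the 191 is given, an alternative chosen after the data had been seen.

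Markers of other cell types were summed in the members, with the most abundant gene given for most lists. The 8 MGE-type markers, led by *Nxph1*, summed to 4424, 4331, 3398 and 4403 CPM in WT F1, F2, M1 and M2. In V321L F1, F2, M1 and M2 they summed to 2575, 2381, 2100 and 2255 CPM, without overlap. The 10 GC markers, led by *Ntng1*, summed to 1696 CPM in WT and 1652 CPM in V321L members (means of 4 mice), against 5913 and 4297 CPM in GC-type nuclei. The markers of other excitatory neurons summed to 239 and 243 CPM, with *Slc17a6* at 0. Those of Cajal-Retzius cells, early neurons of the DG margin that also make reelin, summed to 1118 and 832 CPM and were led by *Reln*, with *Lhx5* at 0. Oligodendrocyte markers summed to 44.7, 110.7, 117 and 113 CPM in WT F1, F2, M1 and M2 and to 198, 237, 463 and 605 CPM in V321L F1, F2, M1 and M2, without overlap. Vascular markers summed to 4.96 and 102 CPM, all from *Ptgds* and *Rgs5*, with *Cldn5*, *Flt1* and *Dcn* at 0. Astrocyte markers (led by *Slc1a2*) summed to 345 and 190 CPM, those of oligodendrocyte precursors (*Tnr*) to 660 and 495 CPM, of microglia (*P2ry12*) to 126 and 65.2 CPM and of neuroblasts (*Dcx*, with *Eomes* at 0) to 177 and 169 CPM. In barcodes with at most 100 UMIs, which hold free RNA, the oligodendrocyte markers summed to 1736 CPM in WT and 3335 CPM in V321L libraries and the vascular markers to 137 and 2163 CPM. The part of these transcripts in the results below was not tested.

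Within the members, 2 groups of genes kept apart. The first was led by *Nxph1*, which encodes the neurexin ligand neurexophilin 1 and reached 3 or more UMIs in 102 nuclei. The second was led by *Cnr1*, at 3 or more UMIs in 69 nuclei. Both limits were met in only 7 nuclei. Nuclei were split by these genes after their values had been seen, so the levels that follow are summed CPM with no test.

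Members with 3 or more *Nxph1* UMIs carried *Lamp5*, *Reln* and *Npy*. Against the 94 members without *Nxph1*, they had 177 and 0 CPM of *Lamp5*, a lysosomal membrane protein that marks neurogliaform cells in cortex, and 1344 and 398 CPM of *Reln*, the secreted protein reelin. *Npy*, which encodes neuropeptide Y, stood at 476 against 42.9 CPM. Its level came mostly from V321L mice, with means of 75.7 CPM in WT and 868 CPM in V321L *Nxph1* nuclei. The matrix genes *Vcan* (478 and 26.2 CPM) and *Hapln1* (489 and 28.6 CPM), the phosphodiesterase gene *Pde11a* (593 and 45.2 CPM), the receptor tyrosine kinase gene *Kit* (113 and 23.8 CPM) and *Erbb4* (14995 and 4384 CPM) were higher with *Nxph1* too. *Ndnf* (157 and 73.8 CPM), which encodes a secreted factor, differed less. *Adarb2* ran the other way, with 3390 against 10159 CPM, as did *Npas1* (11.1 and 179 CPM) and *Nr2f2* (33.2 and 126 CPM). Of the MGE genes of the rule, *Lhx6* was higher with *Nxph1* (26.6 and 4.76 CPM), on few UMIs. *Satb1* was instead higher with 3 or more *Cnr1* UMIs than without *Cnr1* (62.1 and 14.4 CPM). *Nxph1* is itself among the MGE-type markers summed above. Whether the *Nxph1* nuclei derive from the CGE or the MGE was not tested, and CGE-type names the rule only.

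Members with 3 or more *Cnr1* UMIs had more *Cck* and *Vip* UMIs in sum, although 26 of the 69 held a *Cck* UMI and 9 a *Vip* UMI. Of the 189 *Vip* UMIs in them, 81 and 43 came from 2 nuclei. Against the 111 members without *Cnr1*, they had 451 and 90.4 CPM of *Cck* (cholecystokinin), 587 and 12.3 CPM of *Vip*, 202 and 14.4 CPM of *Cxcl14*, a chemokine gene, and 1408 and 82.2 CPM of *Cadps2*, a factor for the release of dense-core vesicles. The transcription factor genes *Npas3* (3689 and 356 CPM) and *Npas1* (174 and 32.9 CPM) went with them, as did the calcium-binding protein gene *Necab1* (488 and 39.0 CPM). *Lamp5* (18.6 and 103 CPM), *Vcan* (31.1 and 409 CPM) and *Nxph1* itself (659 and 2577 CPM) were lower with *Cnr1*.

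*Vip* and *Reln* were rarely seen together. Both gave a UMI in 4 nuclei, with at most 2 of *Reln*. None of the 17 nuclei with a *Vip* UMI held 3 UMIs of *Reln* or of *Nxph1*, while 9 held 3 of *Cnr1* and 10 held a UMI of *Penk*, the gene of the enkephalin precursor. *Reln* at 3 or more UMIs was found in 79 nuclei, of which 58 also reached 3 of *Nxph1* and 19 reached 3 of *Cnr1*. In 44 members, 8 WT and 36 V321L, none of the 3 genes reached 3 UMIs and no *Vip* was seen.

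**Figure D1:**
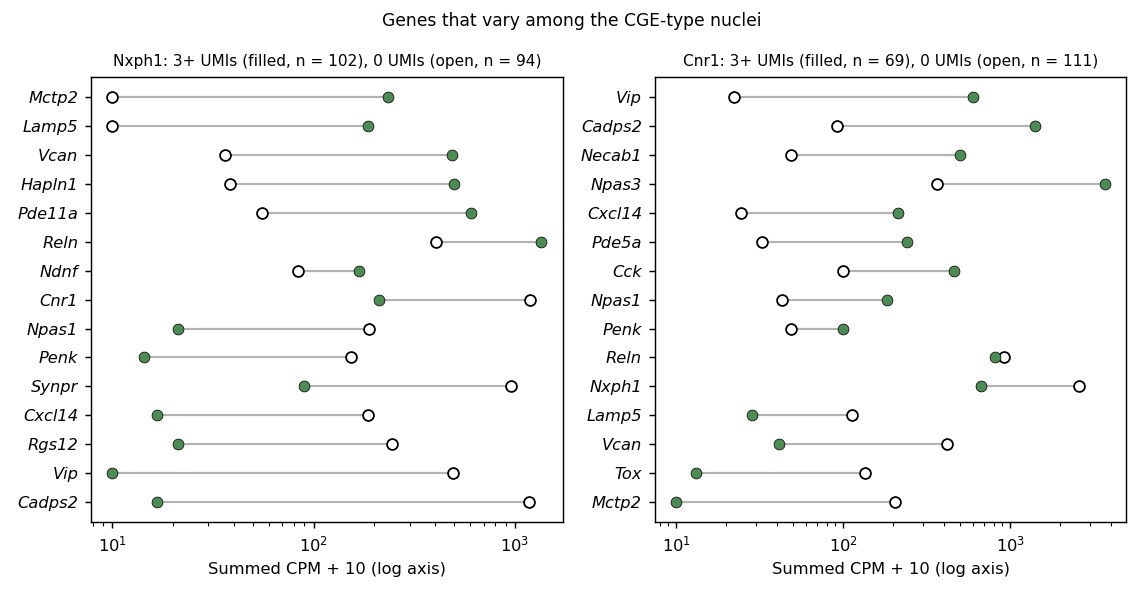
Summed levels (CPM plus 10, log axis) of 15 genes per panel in members with 3 or more UMIs of a splitting gene (filled) and in members with none (open), for *Nxph1* (102 and 94 nuclei) and *Cnr1* (69 and 111 nuclei). *Lamp5*, *Vcan* and *Reln* were higher with *Nxph1*, and *Vip*, *Cadps2* and *Cxcl14* were higher with *Cnr1*.

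The *Nxph1* nuclei made up a larger part of the WT members. Their share was 64%, 51.9%, 64.3% and 50% in WT F1, F2, M1 and M2 (57.5 ± 7.67, SD, n = 4 mice) and 42.5%, 42.9%, 33.3% and 30% in V321L F1, F2, M1 and M2 (37.2 ± 6.50). The 2 genotypes did not overlap. Among the 191 *Erbb4* nuclei they did, with 66.7%, 51.9%, 69.2% and 53.8% in the WT and 47.2%, 65.2%, 41.2% and 36.0% in the V321L mice, V321L F2 being above WT F2 and WT M2. The share of *Cnr1* nuclei was 28%, 40.7%, 14.3% and 36.7% in WT and 37.5%, 20%, 33.3% and 30% in V321L mice in the same order, and the share of *Reln* nuclei was 52%, 40.7%, 28.6% and 26.7% in WT and 25%, 40%, 42.9% and 33.3% in V321L mice. Both of these overlapped. A share of nuclei at 3 UMIs depends on depth and on the level of the gene itself, so fewer cells of a type and less RNA per cell cannot be told apart here or in the summed counts below.

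Against the 56 MGE-type nuclei, the other GABAergic class, members carried their own set of genes outside the rule. The 2 classes were separated by RNA, so this is a description of mean differences in log2(CPM + 10) over the 8 mice. Of 32272 genes, 189 were higher and 57 lower in members in all 8 mice, although WT M1 had only 2 MGE-type nuclei. *Ntng1*, an axonal adhesion protein of the netrin family, led (5.22; mean 652 against 15.3 CPM), followed by *Cadps2* (4.80; 548 against 14.99 CPM), *Vcan* (3.90; 245 against 14.0 CPM) and *Ndnf* (3.53; 118 against 0 CPM). *Prox1*, a transcription factor of CGE-derived interneurons and of GCs, was higher by 2.46 (81.0 against 9.80 CPM) and *Cck* by 2.09. Lower in members were *Cacna2d2*, a calcium channel subunit (fell by 2.82; 14.1 against 170 CPM), *Kctd8*, an auxiliary subunit of GABA-B receptors (fell by 2.24; 115 against 620 CPM), and the transcription factor gene *Sox5* (fell by 2.17; 117 against 531 CPM). *Kctd8*, like *Prox1* and *Cck*, is in the list of CGE genes outside the rule used below, so genes of that list went both ways. *Nxph1*, a gene usually listed for MGE-derived cells, was lower by a smaller margin, with 1963 CPM in members and 3504 CPM in MGE-type nuclei.

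CGE-type nuclei took up a larger share of the V321L DG as the nuclei were counted. In WT F1 they were 25 of 1834 nuclei, 1.36% (95% exact Clopper-Pearson interval 0.884 to 2.01), in F2 27 of 3762, 0.718% (0.473 to 1.04), in M1 14 of 1981, 0.707% (0.387 to 1.18), and in M2 30 of 2253, 1.33% (0.90 to 1.90). In V321L F1 they were 40 of 2062 nuclei, 1.94% (1.39 to 2.63), in F2 35 of 2019, 1.73% (1.21 to 2.4), in M1 21 of 1515, 1.39% (0.860 to 2.11), and in M2 30 of 1589, 1.89% (1.28 to 2.68). The intervals cover counting error only. The mean was 1.03% ± 0.367 (SD, n = 4) in WT and 1.74% ± 0.25 (n = 4) in V321L mice, a difference of 0.707 percentage points, and every V321L mouse was above every WT mouse (two-sided exact permutation test, p = 0.0286, the smallest that 4 against 4 mice allow).

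The difference did not pass with equal RNA depth per nucleus, on few members. With every nucleus thinned to 1000 UMIs and the rule applied again, 5 of 1450, 3 of 2679, 5 of 1165 and 7 of 1734 nuclei were members in WT F1, F2, M1 and M2 and 14 of 1800, 10 of 1907, 2 of 1397 and 6 of 1407 in V321L F1, F2, M1 and M2. The shares were then 0.322% ± 0.145 and 0.468% ± 0.262 (n = 4 each, difference 0.146 percentage points, exact p = 0.343), and V321L M1 was among the lowest. A further setting left out the 30 WT and 45 V321L members with 2 or more UMIs over *Slc17a7*, *C1ql2*, *C1ql3* and *Ntng1*. This brought the gap between genotypes to 0.422 percentage points (exact p = 0.0857). *Ntng1*, which stood higher in members than in MGE-type nuclei, reached 3 or more UMIs in 24 WT and 30 V321L members. This setting is therefore not specific to excitatory transcripts. With the 191 *Erbb4* nuclei only, the shares were 0.959% ± 0.322 and 1.40% ± 0.313 (n = 4 each, exact p = 0.171). Among GABAergic nuclei alone, where the first step of the rule is shared, members were 73.5%, 56.2%, 70% and 63.8% in WT F1, F2, M1 and M2 and 78.4%, 87.5%, 60% and 76.9% in V321L F1, F2, M1 and M2. These means of 65.9 ± 7.58 and 75.7 ± 11.5 (n = 4 each) differed by 9.81 percentage points (exact permutation p = 0.2), and without the upper limits on UMIs and genes the difference was -0.217.

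**Figure D2:**
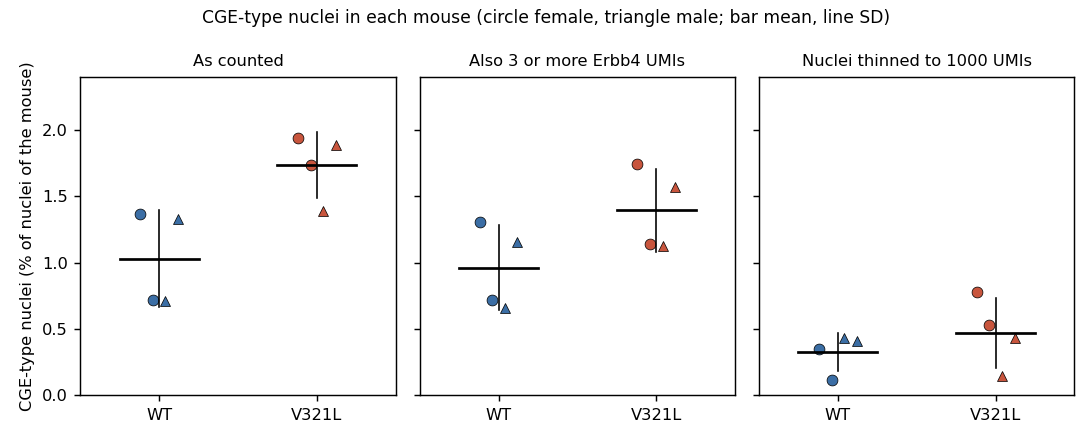
Share of CGE-type nuclei among all kept nuclei (percent) per mouse (circles females, triangles males, bar the mean, line the SD), as counted, for members with 3 or more *Erbb4* UMIs, and after thinning to 1000 UMIs. The 4 V321L mice lie above the 4 WT mice as counted, and the groups overlap in the other 2 panels.

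Gene expression was then compared between V321L and WT members on UMIs summed per mouse, 359950 UMIs in the 4 WT and 622004 in the 4 V321L mice, with edgeR's quasi-likelihood test and Benjamini-Hochberg adjustment. Of 2356 genes tested, 540 (22.9%) passed an adjusted p of 0.05, 334 (14.2%) higher and 206 (8.74%) lower in V321L, and in 580 (24.6%) the genotypes did not overlap. The median log2 fold change over all tested genes was -0.03. The filter on summed counts lets in a gene that is low in WT through its V321L level, so counts and medians over the tested genes of a list below are descriptions only and favour rises among low genes. With plain library totals in place of TMM scaling the median was 0.09, with 386 genes higher and 128 lower. With the 191 *Erbb4* nuclei 388 of 2000 tested genes passed, and on nuclei thinned to 1000 UMIs 43 of only 425 tested (33 higher, 10 lower). In GC-type nuclei of the same mice 8876 of 12937 genes (68.6%) passed and in MGE-type nuclei 53 of 597 (8.88%), counts that also follow the number of nuclei summed.

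The genes that chose the members varied between mice. *Gad2* stood at 715, 849, 849 and 716 CPM in WT F1, F2, M1 and M2 and at 574, 439, 548 and 472 CPM in V321L F1, F2, M1 and M2. *Cnr1* stood at 1475, 1464, 762 and 950.0 CPM in the WT mice and at 949.5, 247, 617 and 481 CPM in the V321L mice. *Vip* ranged from 0 to 185 CPM in WT and from 90.8 to 574 CPM in V321L mice, in 5 and 12 nuclei. A single nucleus held 81 *Vip* UMIs in V321L F1, and another held 43 in V321L M1. *Npas1* ranged from 0 to 52.8 and from 55.5 to 216 CPM. *Adarb2* was 9643, 11442, 5536 and 7132 CPM in the WT and 4007, 3954, 7207 and 6797 CPM in the V321L mice, and *Gad1* 492, 381, 498 and 415 CPM against 756, 600.2, 386 and 821 CPM.

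Of 23 neuropeptide and secretory granule genes listed outside the rule, 15 were too low to test. Of the 8 tested, 4 rose in V321L and none fell, and the median of the 8 log2 changes was 1.32, beside -0.03 for every tested gene (14.2% of which were higher and 8.74% lower). In GC-type nuclei the median over the listed genes tested there was similar, at 1.39. The 4 were *Npy*, *Cck*, *Pnoc* and *Scg2*, with 14, 16, 9 and 18 UMIs in all WT members and 229, 217, 106 and 107 in the V321L members, so that they passed the filter by their V321L level.

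*Npy*, the inhibitory peptide of neurogliaform and other interneurons, was 8.94, 36.9, 117 and 45.2 CPM in WT F1, F2, M1 and M2 and 381, 298, 677 and 166 CPM in V321L F1, F2, M1 and M2. All V321L mice were above all WT mice, by a log2 fold change of 3.28 (SE 0.49, edgeR adjusted p = 8.22e-05). At least 3 *Npy* UMIs were found in 24 V321L members and in no WT member. In the *Nxph1* nuclei alone (54 WT, 48 V321L) *Npy* was 14.1, 74.9, 153 and 61.0 CPM in WT F1, F2, M1 and M2 and 677, 649, 1769 and 378 CPM in V321L F1, F2, M1 and M2, again without overlap. Of the 74 *Npy* UMIs behind the 1769 CPM of V321L M1, 52 came from 1 nucleus, which also entered that mouse's value over all members. Among the other members (42 and 78 nuclei) it averaged 24.7 and 68.3 CPM.

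*Pnoc*, which encodes the precursor of the opioid-like peptide nociceptin, was 35.7, 12.3, 29.3 and 22.6 CPM in WT F1, F2, M1 and M2 and 172, 182, 163 and 158 CPM in V321L F1, F2, M1 and M2. It changed by a log2 fold of 2.788 (SE 0.36, edgeR adjusted p = 2.25e-05), with little spread among the V321L mice. In GC-type nuclei *Pnoc* was far lower, but there too it was higher in V321L, with means of 0.136 CPM in WT and 1.51 CPM in V321L mice. It was also higher in V321L in barcodes with at most 100 UMIs, as given below. The rise was therefore not limited to members. *Scg2*, a secretogranin of dense-core vesicles, was 44.7, 36.9, 58.6 and 60.3 CPM in WT and 193, 207, 120.0 and 133 CPM in V321L mice in the same order (log2 fold change 1.81, SE 0.34, edgeR adjusted p = 0.000673).

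*Cck* was 17.9, 49.2, 117 and 45.2 CPM in WT F1, F2, M1 and M2 and 671, 116, 240.0 and 340.0 CPM in V321L F1, F2, M1 and M2. V321L F2 fell just below WT M1, and the log2 fold change was 2.99 (SE 0.56, edgeR adjusted p = 0.000706). This transcript was also frequent outside interneurons. In GC-type nuclei *Cck* went from 13.1 to 340.2 CPM, and in barcodes with at most 100 UMIs from 114 to 1848 CPM. *Npy* in such barcodes went from 35.0 to 270.0 CPM and *Pnoc* from 2.73 to 19.1 CPM. The part of free RNA in the members' values was not tested.

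*Penk*, the gene of the enkephalin precursor, was too low for the fit. It was 0, 36.9, 0 and 7.54 CPM in WT F1, F2, M1 and M2 (4 UMIs in 2 nuclei) and 123, 30.3, 146 and 133 CPM in V321L F1, F2, M1 and M2 (62 UMIs in 24 nuclei). V321L F2 lay below WT F2, and no test is given.

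**Figure D3:**
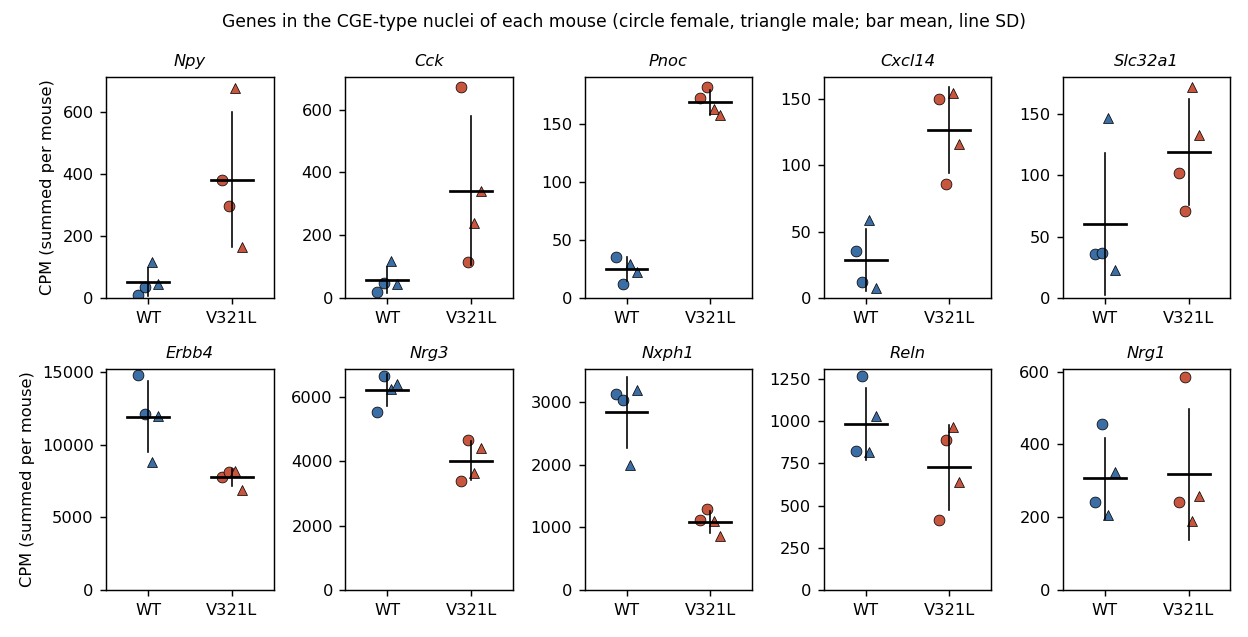
Levels (CPM of UMIs summed over the members of each mouse) of 10 genes in the 4 WT and 4 V321L mice, with each point a mouse (circles females, triangles males), the bar the mean and the line the SD. *Npy*, *Pnoc* and *Cxcl14* lie higher and *Nrg3* and *Nxph1* lower in every V321L mouse, while the genotypes overlap for *Reln* and *Nrg1*.

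Of 4 tested genes of GABA synthesis, packaging and uptake outside the rule, 1 rose and 1 fell, with a median log2 fold change of 0.15, beside 14.2% higher and 8.74% lower over all genes. *Slc32a1*, the transporter that loads GABA into vesicles, was 35.7, 36.9, 146 and 22.6 CPM in WT F1, F2, M1 and M2 and 102, 70.6, 171 and 133 CPM in V321L F1, F2, M1 and M2. Its log2 fold change was 1.47 (SE 0.47, edgeR adjusted p = 0.0307), WT M1 overlapped the V321L mice, and under DESeq2 the adjusted p was 0.0574. The call was also lost without a filter (adjusted p = 0.0631) and without any of WT F1, F2, M2 and V321L F1, M1, M2 (adjusted p = 0.0525 to 0.161).

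Of 37 genes listed for the CGE class outside the rule, 16 could be tested. Of these 3 rose and none fell, with a median of 0.17, beside 14.2% higher and 8.74% lower over all genes. The 3 had 8 to 16 UMIs in all WT members and passed the filter by their V321L level. Besides *Cck* these were *Cxcl14* and *Rgs12*, a regulator of G-protein signalling. *Cxcl14* was 35.7, 12.3, 58.6 and 7.54 CPM in WT F1, F2, M1 and M2 and 150.2, 85.7, 154 and 116 CPM in V321L F1, F2, M1 and M2, without overlap (log2 fold change 2.50, SE 0.49, edgeR adjusted p = 0.000955). *Rgs12* was 26.8, 24.6, 58.6 and 52.8 CPM in WT and 166, 85.7, 214 and 199 CPM in V321L mice, also without overlap (2.10, SE 0.42, adjusted p = 0.00115). Both were genes of the members without much *Nxph1*, where *Cxcl14* averaged 68.8 CPM in WT and 203 CPM in V321L mice and *Rgs12* 81.3 and 263 CPM. With only those that had at least 3 *Erbb4* UMIs these were 88.9 and 310.1 CPM for *Cxcl14* and 107 and 403 CPM for *Rgs12*.

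Other CGE genes did not pass. *Lamp5* changed by 0.41 (adjusted p = 0.573), *Ndnf* by -0.49 (adjusted p = 0.363) and *Prox1* by 0.48 (adjusted p = 0.344). *Reln* was 822, 1267, 820.2 and 1033 CPM in WT F1, F2, M1 and M2 and 413, 888, 968 and 638 CPM in V321L F1, F2, M1 and M2. The genotypes overlapped (log2 fold change -0.39, SE 0.24, edgeR adjusted p = 0.253). *Htr3a*, the serotonin receptor subunit of many CGE-derived cells, gave 5 UMIs in WT and 30 in V321L members and *Calb2*, calretinin, 0 and 9, both below the filter of the fit.

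Of 14 tested genes usually listed for the MGE class, 2 rose and 3 fell (median -0.19), beside 14.2% higher and 8.74% lower over all genes. *Nxph1* was 3128, 3039, 1992 and 3189 CPM in WT F1, F2, M1 and M2 and 1110.5, 1286, 1106 and 854 CPM in V321L F1, F2, M1 and M2. No mouse overlapped, and the log2 fold change was -1.32 (SE 0.19, edgeR adjusted p = 5.37e-05). *Trps1*, a zinc-finger repressor, was 777, 714, 1435 and 882 CPM in WT and 483, 439, 369 and 248.7 CPM in V321L mice (-1.16, SE 0.25, adjusted p = 0.00209). The other 3 genes were *Npy*, *Erbb4* and the potassium channel gene *Kcnc1* (1.21, adjusted p = 0.00741, and 0.0537 without WT F1). Among 9 tested transcription factors of GABAergic lineages, *Nfix* (1.55, adjusted p = 0.0136) and *Bcl11b* (1.13, adjusted p = 0.0146) rose and none fell, with a median of 0.35, beside 14.2% higher and 8.74% lower over all genes. Neither passed without WT F1 (adjusted p = 0.0818 and 0.0587) or without V321L F2 (0.0606 and 0.062), nor *Bcl11b* without WT F2 (0.0645).

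Of 6 tested genes of the neuregulin pathway (of 16 listed), none rose and 2 fell, with a median of -0.25, beside 14.2% higher and 8.74% lower over all genes. *Erbb4*, the neuregulin receptor, was 14817, 12144, 8788 and 11972 CPM in WT F1, F2, M1 and M2 and 7768, 8120.0, 8184 and 6897 CPM in V321L F1, F2, M1 and M2. All V321L mice were below all WT mice (log2 fold change -0.55, SE 0.17, edgeR adjusted p = 0.0202). This call rested on the choice of nuclei and scaling. With the 191 *Erbb4* nuclei, which were selected on this gene, the value was -0.27 (adjusted p = 0.288), with plain library totals -0.43 (adjusted p = 0.0505), and without WT F1, V321L F1 or V321L M2 the adjusted p was 0.056, 0.051 and 0.0574.

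*Nrg3*, a neuregulin that binds ErbB4, was 5541, 6669, 6269 and 6424 CPM in WT F1, F2, M1 and M2 and 3379.7, 4680.4, 3634 and 4418 CPM in V321L F1, F2, M1 and M2. The groups did not overlap (log2 fold change -0.55, SE 0.16, edgeR adjusted p = 0.0170). The gene did not pass with plain library totals (-0.43, adjusted p = 0.0533), without V321L F1 (adjusted p = 0.0707), without V321L M1 (adjusted p = 0.0515) after thinning (-0.02, adjusted p = 0.968) or with the 191 *Erbb4* nuclei (-0.45, adjusted p = 0.0864). In the *Nxph1* nuclei *Nrg3* averaged 5896 CPM in WT and 2929 CPM in V321L mice, and in the other members 6629 and 4775 CPM. Among the other members with at least 3 *Erbb4* UMIs (37 WT, 53 V321L) it averaged 6325 ± 1383 and 5628 ± 2345 CPM (SD, n = 4), with overlap of the mice.

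*Nrg1*, the gene with the exchange, was 241, 455, 205 and 324 CPM in WT F1, F2, M1 and M2 and 241, 585, 189 and 257 CPM in V321L F1, F2, M1 and M2. The genotypes covered the same range, and the log2 fold change was 0.12 (SE 0.32, edgeR adjusted p = 0.820). The transcript count does not report on the exchange itself. In GC-type nuclei the fitted change was -0.89 (edgeR adjusted p = 0.00674), with means of 730 CPM in WT and 544 CPM in V321L mice. The mice overlapped there, V321L M1 (837 CPM) being above WT F1 (796 CPM). The difference between the classes was 0.74 (edgeR adjusted p = 0.235).

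Of 17 tested glutamate receptor genes 2 rose and 3 fell, with a median of -0.36, beside 14.2% higher and 8.74% lower over all genes. *Grin1*, the obligatory subunit of NMDA receptors, was 71.5, 86.1, 234 and 143 CPM in WT F1, F2, M1 and M2 and 402, 429, 428 and 448 CPM in V321L F1, F2, M1 and M2, without overlap (log2 fold change 1.91, SE 0.28, edgeR adjusted p = 5.69e-05). The kainate receptor gene *Grik5* rose by 2.14 (adjusted p = 0.00365), and *Grid1* (-1.19, adjusted p = 0.000467) and the kainate receptor gene *Grik2* (-0.47, adjusted p = 0.0432) were among those that fell. Of 12 genes of GABA receptors and their scaffold, *Gabbr1*, a GABA-B subunit, rose (1.06, adjusted p = 0.00662), and *Gabrb2*, a GABA-A subunit (-0.60, adjusted p = 0.0371), and *Gphn*, the scaffold gephyrin (-0.63, adjusted p = 0.0224), fell. The median was -0.07, and the 1 rise and 2 falls stand beside 14.2% and 8.74% over all genes. With plain library totals neither fall passed (adjusted p = 0.0977 and 0.0536), nor did *Gabrb2* without WT M2 (0.058), V321L M1 (0.0652) or V321L M2 (0.11), or *Gphn* without V321L F2 (0.0573) or V321L M2 (0.0597). With the 191 *Erbb4* nuclei the adjusted p was 0.195 and 0.0576. None of 3 tested serotonin, acetylcholine and monoamine receptor genes of 28 listed passed (median -0.09).

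In endocannabinoid signalling, which acts on the terminals of CB1 cells, 2 of 6 tested genes rose and none fell (median 0.64), beside 14.2% higher and 8.74% lower over all genes. Both encode enzymes that break down 2-arachidonoylglycerol. *Abhd6* was 35.7, 61.5, 87.9 and 75.4 CPM in WT F1, F2, M1 and M2 and 161, 161, 137 and 158 CPM in V321L F1, F2, M1 and M2, without overlap (log2 fold change 1.40, SE 0.31, edgeR adjusted p = 0.00322). *Mgll* rose by 1.18 (adjusted p = 0.0092).

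Of 25 tested voltage-gated channel genes 4 rose and 3 fell, with a median of -0.09, shares near the 14.2% and 8.74% over all genes. *Cacna1a*, the pore of P/Q-type calcium channels that drive release, was 170.2, 148, 352 and 196 CPM in WT F1, F2, M1 and M2 and 467, 499, 506 and 531 CPM in V321L F1, F2, M1 and M2 (log2 fold change 1.41, SE 0.24, edgeR adjusted p = 0.000261). The genotypes did not overlap. *Cacna1c*, an L-type channel, rose by 0.67 (adjusted p = 0.0256).

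Synaptic adhesion genes were the list with the most falls. Of 39 tested (of 46 listed), 15 fell and 1 rose (8.74% lower and 14.2% higher over all genes), and the median log2 fold change was -0.53 against -0.03 over all genes. The fall was not particular to members. In GC-type nuclei the median over the listed genes tested there was -0.996, beside 0.12 over all genes. Summed over the list, they took 83174, 89694, 70713 and 71360 CPM in WT F1, F2, M1 and M2 and 47192, 45997, 56904 and 47888 CPM in V321L F1, F2, M1 and M2, so that the genotypes did not overlap. *Flrt2*, a ligand of latrophilins and netrin receptors, was 1153, 935, 879 and 769 CPM in the WT and 327, 373, 540.0 and 356 CPM in the V321L mice (-1.17, SE 0.22, edgeR adjusted p = 0.000638). Without nuclei holding 2 or more UMIs over *Slc17a7*, *C1ql2*, *C1ql3* and *Ntng1* its value was -0.61 (edgeR adjusted p = 0.1). *Cntnap4*, a contactin-associated protein of interneurons, was 885, 689, 615 and 731 CPM in the WT and 531, 222, 291 and 232 CPM in the V321L mice (-1.12, SE 0.27, adjusted p = 0.00478). The netrin receptor gene *Dcc* fell by the same 1.12, and *Nrxn2* was the gene that rose (1.35, adjusted p = 0.00691). Of 17 tested genes of the release machinery 7 rose and 3 fell (median 0.35), beside 14.2% higher and 8.74% lower over all genes. Those that rose included *Vamp2* (2.65, adjusted p = 0.0056) and *Syp* (1.52, adjusted p = 0.0092, and 0.0551 without WT F1) of the vesicle membrane, and those that fell the active zone genes *Rims2* (-0.79, adjusted p = 0.00543) and *Pclo* (-0.75).

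**Figure D4:**
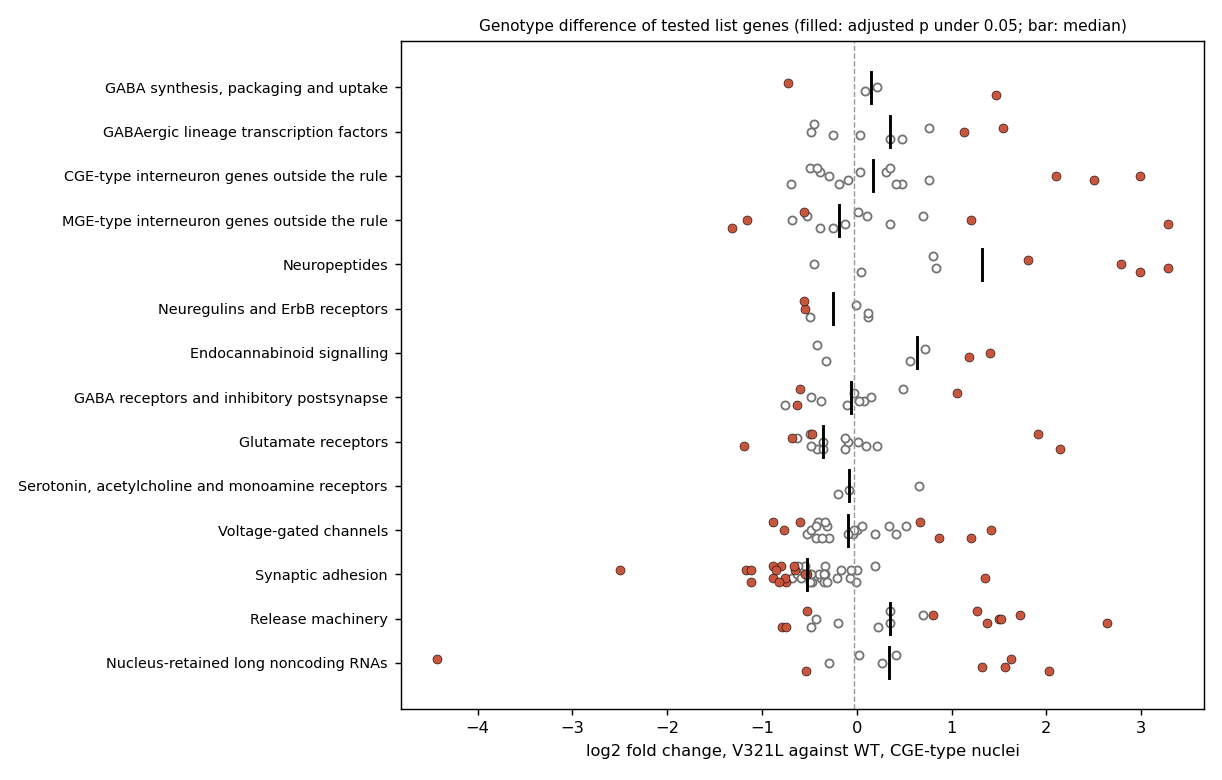
log2 fold change (V321L against WT) of the tested genes of 14 lists in CGE-type nuclei, without genes of the rule; filled points passed an adjusted p of 0.05, bars mark list medians and the dashed line the median of all tested genes (-0.03). Neuropeptide genes (median 1.32) lie mainly to the right and synaptic adhesion genes (median -0.53) mainly to the left.

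Large changes were seen in short housekeeping transcripts and in nuclear noncoding RNA. Mitochondrial share and the RNA depth of the library were also higher in every V321L mouse, and their part in these changes was not tested. Cytosolic ribosomal protein genes summed to 545, 763, 1347 and 611 CPM in WT F1, F2, M1 and M2 and to 13530, 6965, 5802 and 15352 CPM in V321L F1, F2, M1 and M2. Of 83 such genes only 18 passed the filter, and all 18 rose, beside 14.2% higher and 8.74% lower over all genes. A filter on summed counts favours this direction. Nuclear-encoded genes of oxidative phosphorylation summed to 1486 ± 292 and 7773 ± 2480 CPM (15 of 17 tested rose, of 89 listed, under the same filter), and mitochondrial genes to 2814 ± 1743 and 8289 ± 4036 CPM (6 of 9 tested rose, of 13). Both counts stand beside the same 14.2% and 8.74% over all genes. GC-type nuclei shared these rises. For ribosomal, nuclear-encoded respiratory and mitochondrial genes the median log2 fold changes were 4.28, 2.02 and 1.92 in members. In GC-type nuclei they were 3.94, 2.70 and 0.63. Only 1 immediate early gene could be tested, and it did not pass.

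Among genes of at least 50 CPM without overlap, 7 of the 10 largest rises were ribosomal or respiratory, led by *Rplp1* at 8.94, 12.3, 0 and 0 CPM in WT and 515, 166, 206 and 497 CPM in V321L mice (fitted log2 fold change 5.80). The WT counts of these 10 genes were 1 to 6 UMIs in all, so the fitted folds are no bounds. Among them was *Pcsk1n*, which encodes an inhibitor of the prohormone convertase that cuts peptide precursors. It was 26.8, 0, 58.6 and 7.54 CPM in WT F1, F2, M1 and M2 and 676, 504, 711 and 870.4 CPM in V321L F1, F2, M1 and M2 (5.35, SE 0.43, edgeR adjusted p = 9.39e-08). The others outside the ribosome and respiratory chain were *Mt3*, a neuronal metallothionein (5.55), and *Ppp1r1a*, a protein phosphatase inhibitor (5.41).

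Among the genes that passed the filter on low counts, the largest fall was that of *Gm42418*, a transcript that overlaps ribosomal RNA, at 8222, 5524, 11131 and 6363 CPM in WT and 439.9, 267, 317 and 332 CPM in V321L mice (-4.43). In barcodes with at most 100 UMIs it went from 112742 to 2676 CPM. *Pde3a*, a phosphodiesterase that hydrolyses cAMP and cGMP, was 197, 185, 322 and 211 CPM in WT F1, F2, M1 and M2 and 59.0, 30.3, 34.3 and 49.7 CPM in V321L F1, F2, M1 and M2 (-2.20, SE 0.32, edgeR adjusted p = 5.69e-05). *Nme7*, a centrosomal nucleoside kinase gene, was 652, 431, 879 and 581 CPM in WT and 96.6, 65.6, 197 and 116 CPM in V321L mice (-2.35, adjusted p = 1.57e-05). *Malat1*, an abundant RNA retained in the nucleus, was 8302, 9412, 10077 and 10020 CPM in WT and 40943, 38674, 38959 and 27869 CPM in V321L mice (2.03, SE 0.15, adjusted p = 5.86e-08). Of 10 tested long noncoding RNAs of this kind 4 rose and 2 fell (median 0.34, beside 14.2% and 8.74% over all genes), and *Meg3* rose by 1.33 (adjusted p = 5.19e-05).

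Whether a genotype effect in CGE-type nuclei differed from that in GC-type nuclei was tested as a class by genotype term with the mouse as a block. Of 10697 genes tested 64 passed (0.598%), 52 with a higher effect (0.486%) and 12 with a lower effect (0.112%) in members. With plain library totals 42 passed, 18 higher and 24 lower, and the median of all genes moved from 0.23 to -0.01, so the split by direction depended on scaling. Most effects named above were not shown to differ between the classes. List medians had the other sign in GC-type nuclei for release machinery (-0.16), CGE genes (-0.60), GABA synthesis (-0.30) and lineage transcription factors (-0.07). The same held for serotonin, acetylcholine and monoamine receptors (0.01) and immediate early genes (1.52). The changes of *Npy* were 3.28 in members and 3.45 in GC-type nuclei (difference -0.50 in the joint fit, edgeR adjusted p = 0.885), and those of *Erbb4* -0.55 and -0.56 (difference -0.31, adjusted p = 0.692). *Nxph1* changed by -1.32 and -0.88 (difference -0.72, adjusted p = 0.173) and *Nrg3* by -0.55 and -1.32 (difference 0.48, adjusted p = 0.336). The GC-type level of *Erbb4* was 80.9 CPM in WT and 77.1 CPM in V321L mice, far below that of the members. In these plain CPM the fall was smaller than the fitted -0.56.

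Genes with a higher effect in members included *B130024G19Rik*, a noncoding transcript, with 38.3 and 87.8 CPM in WT and V321L members against 4.56 and 0.997 CPM in GC-type nuclei (difference 3.45, edgeR adjusted p = 0.000706). *Pde5a*, a cGMP phosphodiesterase, had 109 and 127 CPM in members against 3.10 and 0.630 CPM in GC-type nuclei (2.72, adjusted p = 0.0145). In both, the lower V321L level in GC-type nuclei made up much of the term. *Crkl*, an adaptor of tyrosine kinase signalling, gave 0 UMIs in WT members and 17 UMIs in 16 V321L members, 3.28-fold higher against a floor of 3 UMIs over the group. The spread between mice does not enter this figure, so it is no bound. *Cacna1c* also passed (1.21, adjusted p = 0.000596), while the terms of *Foxn2* (2.69, adjusted p = 0.0495) and of *Calb1*, a GC rule gene (2.63, adjusted p = 0.00391), completed the 5 largest. Of the 50 member UMIs of *Calb1*, 28 lay in the 31 members with few *Erbb4* UMIs, and the GC-type nuclei were themselves chosen in part by this gene. With the 191 *Erbb4* nuclei the adjusted p was 0.406 for *Calb1*, 0.124 for *Crkl* and 0.699 for *Foxn2*. With a mouse left out, the highest adjusted p was 0.316 for *Crkl* (without V321L F2), 0.188 for *Pde5a* (without V321L M2), 0.271 for *Foxn2* (without V321L F2) and 0.0586 for *Calb1* (without WT F1), while *B130024G19Rik* passed without each of the 8 mice.

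Genes with a lower effect in members were led by *Chrm2*, the muscarinic M2 receptor gene found on some interneurons. It was 241, 135, 87.9 and 15.1 CPM in WT F1, F2, M1 and M2 and 0 in all V321L members. The 43 WT UMIs came from 7 nuclei, 2, 2, 1 and 2 in F1, F2, M1 and M2, with 14 in 1 nucleus. Against a floor of 3 UMIs over the group *Chrm2* was 24.8-fold lower in V321L members. This figure counts UMIs as independent although they came from 7 nuclei, so it is no bound. In GC-type nuclei *Chrm2* was 3.50, 4.12, 3.80 and 1.26 CPM in WT F1, F2, M1 and M2 and 0.99, 5.55, 23.3 and 0 CPM in V321L F1, F2, M1 and M2. The groups overlapped there, and the V321L mean of 7.45 CPM, against 3.17 CPM in WT, was 2.18 CPM without V321L M1. MGE-type nuclei of V321L mice did carry *Chrm2*, with 24 UMIs against 11 in WT (means 149 ± 123 and 71.1 ± 81.4 CPM, SD). *Cntnap4*, which fell in members, averaged 7.58 CPM in WT and 13.2 CPM in V321L GC-type nuclei, and 7.77 CPM in V321L without M1, which alone had 29.5 CPM (difference -1.67, edgeR adjusted p = 2.99e-05). The terms of *Cck* (-1.89, adjusted p = 0.0208), whose rise was greater in GC-type nuclei, of *Adamts6*, a matrix protease (-1.80, adjusted p = 0.0268; 58 WT and 18 V321L UMIs), and of *Meis2*, a homeobox gene (11 WT and 1 V321L UMIs), followed. In MGE-type nuclei *Cntnap4* averaged 651 CPM in WT and 664 CPM in V321L mice, without the fall seen in members. *Adamts6* averaged 278 and 147 CPM there, *Meis2* 6.76 and 0 CPM and *Cck* 4.54 and 119 CPM. *Chrm2* passed without each of the 8 mice, whereas the highest adjusted p with a mouse left out was 0.833 for *Meis2* and 0.263 for *Adamts6* (both without WT F1), 0.203 for *Cck* (without WT F2) and 0.16 for *Cntnap4* (without V321L M1). With the 191 *Erbb4* nuclei *Cck* (adjusted p = 0.109) and *Adamts6* (adjusted p = 0.29) did not pass.

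Against MGE-type nuclei no gene passed this test. None of 1597 genes tested was called (0%), with 78 at an unadjusted p under 0.05, and DESeq2 called 1 (57 at an unadjusted p under 0.05). With 2 to 13 MGE-type nuclei per mouse, effects in the 2 interneuron classes could not be separated.

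The rule used accessible chromatin only through the minimum of 500 counts in peaks, not where these counts lay. ATAC counts in peaks centred within 10 kb of a gene start were summed per mouse and class, 1197810 counts for members, 315805 for MGE-type and 56687791 for GC-type nuclei, and compared within mice. The promoters of 3 genes discussed below are shown because their windows were more open in members than in GC-type nuclei. They are the 250 bases before the RefSeq start on GRCm38.p6 (plus strand, 5′ to 3′), with capitals for matches on either strand to GGGCGG (an SP-factor box) and CACGTG (an E-box); TAATTA (a homeodomain core) was searched too and had no match. A match is a description of the letters only. These words occur in 33.0%, 6.04% and 4.84% of 32536 promoters of this length.
Cnr1 chr4:33924394-33924643: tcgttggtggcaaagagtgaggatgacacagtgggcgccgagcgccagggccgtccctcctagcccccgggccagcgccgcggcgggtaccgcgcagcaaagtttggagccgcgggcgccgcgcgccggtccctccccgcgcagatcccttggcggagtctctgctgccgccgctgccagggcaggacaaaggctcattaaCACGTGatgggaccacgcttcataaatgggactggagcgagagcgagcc
Npy chr6:49822460-49822709: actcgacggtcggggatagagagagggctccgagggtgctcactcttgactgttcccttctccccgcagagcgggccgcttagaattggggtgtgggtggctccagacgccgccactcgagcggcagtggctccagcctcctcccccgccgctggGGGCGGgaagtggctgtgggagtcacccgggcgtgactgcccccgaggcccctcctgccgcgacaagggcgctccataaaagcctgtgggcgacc
Sox1 chr8:12395269-12395518: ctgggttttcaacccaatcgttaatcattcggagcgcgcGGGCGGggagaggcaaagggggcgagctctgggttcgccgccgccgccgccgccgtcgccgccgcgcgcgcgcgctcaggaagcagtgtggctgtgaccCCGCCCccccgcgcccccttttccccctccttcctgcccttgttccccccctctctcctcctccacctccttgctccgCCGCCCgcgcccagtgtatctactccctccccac

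Against GC-type nuclei 296 of 17778 windows passed (1.66%), 38 more open (0.214%) and 258 less open (1.45%) in members, with a median log2 difference of -0.11. The window of *Sox1*, a transcription factor of neural progenitors and interneurons, held 45.7, 105, 30.3 and 78.8 CPM of the members' ATAC counts in WT F1, F2, M1 and M2 and 57.1, 32.5, 86.7 and 0 in V321L F1, F2, M1 and M2. In GC-type nuclei it held 5.54 to 9.72 in the 7 libraries with a peak there, and V321L M2 had no peak in the window. The difference was 2.76 (SE 0.52, edgeR adjusted p = 0.000128), with members higher in 7 of 7 mice that had a peak. Over all mice the members held 67 counts in this window.

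Of the genes of the rule, *Cnr1* and *Nr2f2* had windows more open in members. The *Cnr1* window held 45.7, 35.0, 30.3 and 47.3 in WT F1, F2, M1 and M2 and 209, 28.4, 86.7 and 33.0 in V321L F1, F2, M1 and M2, above the same mouse's GC-type nuclei (11.3 to 19.9) in 8 of 8 mice. Over the 8 mice the members held 74 counts in the *Cnr1* window and 62 in that of *Nr2f2*, so values of single mice can rest on a few counts. The *Cnr1* difference was 1.65 (SE 0.42, edgeR adjusted p = 0.0108) and did not pass without V321L F1 (adjusted p = 0.178), without V321L M1 (adjusted p = 0.132) or with windows of 2 kb (adjusted p = 0.149). The *Nr2f2* window (1.48, SE 0.43, adjusted p = 0.0405) lost its call when any of 7 mice was left out (adjusted p = 0.0569 to 0.189). The *Adarb2* window was not more open, with 7.62 to 42.0 in WT and 9.52 to 98.9 in V321L members and a difference of -0.40 (adjusted p = 0.736). Nor did *Gad1* (0.77, adjusted p = 0.307) or *Prox1* (-0.05, adjusted p = 0.975) pass.

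The *Npy* window held 0, 105, 42.5 and 57.8 in the WT members and 0, 24.3, 37.2 and 0 in the V321L members of F1, F2, M1 and M2, against 0, 9.52, 11.02 and 9.32 and 0, 3.53, 6.60 and 6.22 in GC-type nuclei of the same mice. It was higher in members in 5 mice (2.22, SE 0.60, edgeR adjusted p = 0.0193) and did not pass without V321L F2 (0.0803), without V321L M1 (0.0958) or with windows of 50 kb (0.0626). *Pde5a*, whose transcript was also mostly found in members, had a more open window too (2.30, adjusted p = 0.0263, higher in members in 5 of 8 mice). It did not pass without V321L M1 (0.107), with windows of 2 kb (0.0642) or with no filter on low counts (0.0790). Less open were the windows of *Nos1*, neuronal nitric oxide synthase (-2.51, SE 0.57, adjusted p = 0.00266, lower in all 8 mice, and -0.66 with adjusted p = 0.136 for windows of 50 kb), and of *C1ql3*, a GC rule gene (-1.60; adjusted p = 0.0718 without WT F1 and 0.0682 without WT M1). Over the 8 mice the members held 39 counts in the *Npy* window, 40 in that of *Pde5a*, 8 in that of *Nos1* and 21 in that of *C1ql3*. Values of single mice there rest on few counts or none. Among lists, 2 of 15 windows of lineage transcription factors were more open and none less open (median 0.02), 3 of 12 windows of MGE genes were more open and 1 less open (median 0.54), 1 of 15 windows of peptide genes (*Npy*) was more open, 1 of 20 windows of CGE genes (*Nos1*) was less open, and none of the 6 windows of GABA synthesis genes or of the 11 of the neuregulin pathway passed, beside 0.214% and 1.45% of all windows. Gene starts in the deposited annotation (mm10) lie at 12395295 on chromosome 8 for *Sox1*, 33924632 on chromosome 4 for *Cnr1* and 49822710 on chromosome 6 for *Npy*.

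Against MGE-type nuclei only 349 windows were deep enough to test and none was called (0%). At an unadjusted p under 0.05 edgeR gave 28 and DESeq2 32, and DESeq2 called none. Among the windows that passed the filter, no difference in accessibility between the interneuron classes was detected at this depth. Without the filter on low counts 10 windows were called, all more open in members.

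**Figure D5:**
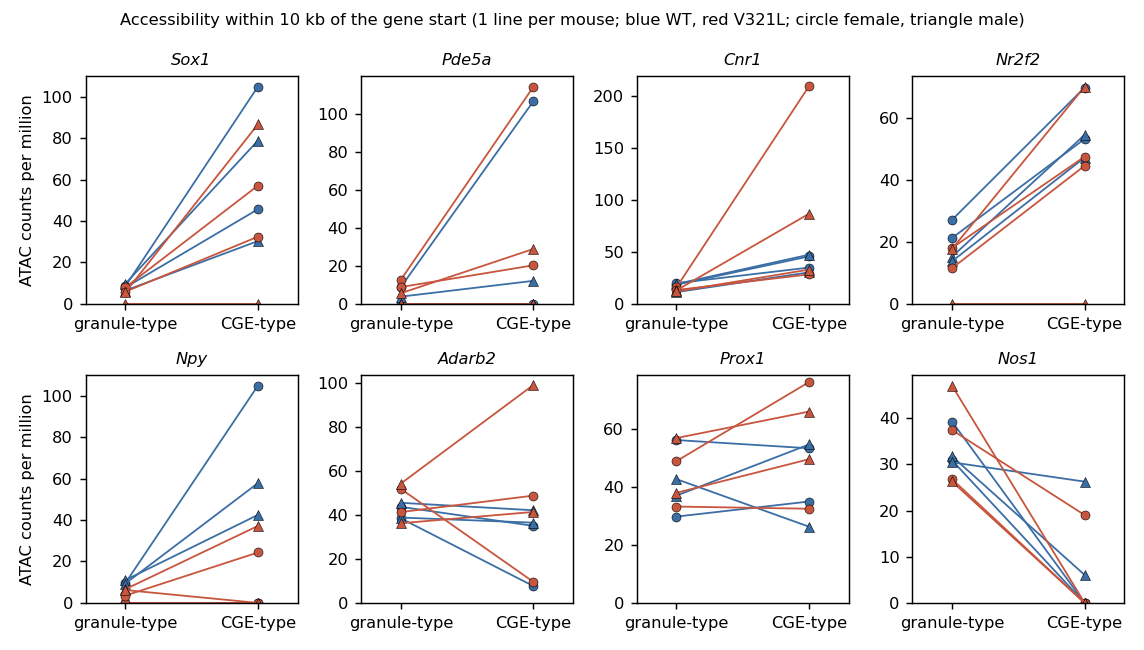
ATAC CPM (counts per 1000000 counts) within 10 kb of the gene start in GC-type and CGE-type nuclei, with a line per mouse (WT blue, V321L red), for 8 genes. Lines rise in every mouse with a signal for *Sox1* and in all 8 mice for *Cnr1*, fall in all 8 for *Nos1* and go both ways for *Adarb2* and *Prox1*; a mouse at 0 in both classes had no peak in the window. Summed over mice, the members held 67 counts for *Sox1*, 74 for *Cnr1* and 8 for *Nos1*.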

How the data were processed

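The authors deposited, per library, UMI counts per gene and ATAC counts per peak for all barcodes, made with Cell Ranger ARC (version 2.0.2, per the file headers; mm10 in the submitters' notes). Peaks were called per library. Each library is a separate mouse. Doublets were scored with Scrublet and kept in the main analysis. Counts were summed per mouse and class and tested with edgeR 4.0.16 (quasi-likelihood test, TMM, filterByExpr, Benjamini-Hochberg threshold 0.05) in R 4.3.3, with DESeq2 as an alternative. SE is the absolute log2 fold change over the square root of the F statistic. CPM values use the plain sum. Shares were tested by exact permutation over 70 assignments. Scripts were tested on simulated data.

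Named were the rule genes, the 3 largest changes of a list among called genes, fixed genes of interest, and the largest changes of each comparison, with others chosen after their values were seen (*Slc17a7*, *C1ql3* and *Gad2* by *Erbb4*, *Htr3a*, *Calb2*, *Lamp5*, *Ndnf*, *Prox1*, *Cacna1c* and subset genes). Members and the 18 gene lists were chosen with earlier results of these data known. Some listed genes are not reported here. Promoters came from RefSeq, where 20267 symbols matched and 73.2% of starts lay within 100 bases of the deposited ones. Antisense and overlapping genes are uncertain, since strand handling is not given in the sources used here.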

Additional observations from a re-analysis of the deposited data

Results flagged for a closer look

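A gene with UMIs in only 1 of 4 mice is flagged by construction. Among 64 groups of 4 mice looked at for a mouse far from the other 3, 8 stood out. In the WT members these were *Rpl17* in M2 (7.54 CPM), *Rpl8* in F1 (8.94 CPM), *Ndufa13* in M2 (7.54 CPM), *Mt3* in M2 (7.54 CPM), *Rps27a* in F2 (12.3 CPM) and *Ppp1r1a* in M2 (7.54 CPM), each the only WT mouse with a UMI of that gene. *4930555F03Rik* in WT M2 was 256 CPM and *Slc32a1* in WT M1 was 146 CPM, the latter above 3 of the 4 V321L mice.

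The genotype effect differed between CGE-type and GC-type nuclei for the 5 largest terms in each direction (edgeR, mouse as a block). These log2 terms were 8.83 for *Crkl*, 3.45 for *B130024G19Rik*, 2.72 for *Pde5a*, 2.69 for *Foxn2* and 2.63 for *Calb1*, and -11.50 for *Chrm2*, -4.79 for *Meis2*, -1.89 for *Cck*, -1.80 for *Adamts6* and -1.67 for *Cntnap4*. The fitted values of *Crkl* and *Chrm2*, each at 0 in a genotype, depend on the prior count and are no bounds.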

How the results depend on the processing

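The 540 of 2356 tested genes called between genotypes became 234 of 1570 with 5 or more GABA-gene UMIs and 43 of 425 after thinning. They became 216 of 1485 without nuclei holding 2 or more UMIs over *Slc17a7*, *C1ql2*, *C1ql3* and *Ntng1* (the *Ntng1* set). Without a filter 1309 of 16390 were called, without upper limits 1454 of 4225 (869 higher, 585 lower), and with a mouse left out 438 to 739. The 64 terms against GC-type nuclei became 137 with DESeq2, 41 with *Erbb4* nuclei, 25 with 5 GABA-gene UMIs, 208 with a lead of 2, 42 with library totals, 35 without a filter, 154 after thinning and 21 to 178 with a mouse left out (21 without V321L F2, 33 without V321L M1, 34 without WT F2, 178 without WT M2). Against MGE-type nuclei 1 was called by DESeq2, with *Erbb4* nuclei, with a lead of 2 or without a filter, and 0 to 3 with a mouse left out. The 296 windows against GC-type nuclei became 500 with DESeq2, 490 with 5 GABA-gene UMIs, 83 and 1173 for 2 and 50 kb, and 182 to 305 with a mouse left out (182 without WT M1, 183 without V321L M1, 193 without WT F1). Against MGE-type nuclei 10 windows were called without a filter, and 0 to 0 with a mouse left out.

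The difference in share of all nuclei was 0.747 percentage points with 1000 ATAC counts required (exact p = 0.0571). Without the *Ntng1* set it was 0.422 (exact p = 0.0857). It was 0.436 with *Erbb4* nuclei, 0.146 after thinning and 0.599 to 0.824 with a mouse left out. Of GABAergic nuclei it was 5.88 to 15.05 with a mouse left out and -0.217 without upper limits. The *Erbb4* alternative was chosen after seeing the data.

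Values of *Nrg1* reversed to -0.05 without a filter, -0.10 with 5 GABA-gene UMIs, -0.43 without upper limits and -0.049 with *Erbb4* nuclei. With a mouse left out they reversed to -0.05 (WT F1), -0.02 (WT M1) and -0.38 (V321L F2), in a range of -0.38 to 0.31. *Reln* reversed to 0.068 without the *Ntng1* set. The terms against GC-type nuclei reversed for *Erbb4* (0.019 without WT F1, -0.37 to 0.019 over the mice left out, 0.16 with 5 GABA-gene UMIs, 0.0055 with a lead of 2), *Npy* (0.022 without V321L M2, -1.01 to 0.022 over the mice left out, 0.67 with 5 GABA-gene UMIs, 0.0045 with a lead of 2) and *Slc32a1* (1.53 after thinning). The causes were not tested. Of the other values of single genes, 1590 kept direction and side of the threshold, 190 lost their call and 13 gained one. Among the 190, 19 lost it with 5 GABA-gene UMIs, 19 without WT F1, 16 without V321L M1 and 15 after thinning. With *Erbb4* nuclei 10 lost it, as did 10 without the *Ntng1* set. Not all of these are named beside their results.

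Same-numbered mice did not deviate together (correlations 0.059, -0.051, -0.074 and -0.070), so the numbers do not pair the samples. With the replicate block 436 genes were called, and *Erbb4* (-0.53, edgeR adjusted p = 0.0638), *Gphn* and *Gabrb2* were not. *Erbb4* also failed with 5 GABA-gene UMIs and after thinning, *Nrg3* with 5 GABA-gene UMIs and with *Erbb4* nuclei, and *Slc32a1* without a filter or without any of WT F1, F2, M2, V321L F1, M1 and M2. *Npy*, *Cck*, *Pnoc*, *Cxcl14*, *Nxph1* and *Malat1* passed between genotypes in each setting in which they were tested. With 14 to 40 nuclei per mouse, peptide and receptor genes of a few UMIs could not be tested, and depth limited the thinned share to 2 to 14 nuclei per mouse.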

Other observations

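The members outside the *Nxph1* group (42 WT and 78 V321L nuclei with 0 to 2 UMIs of *Nxph1*) carried the VIP and enkephalin transcripts. They were an unequal mixture, since 5 of the 42 and 25 of the 78 had fewer than 3 *Erbb4* UMIs, so the values outside the group are given here for the other 37 WT and 53 V321L nuclei. *Vip* averaged 151 CPM in WT and 762 CPM in V321L mice there, with WT F2 (364 CPM) above V321L M2 (271 CPM), and was 0 in the *Nxph1* nuclei of every mouse. Of the 107 *Vip* UMIs of V321L F1 and the 56 of V321L M1, 81 and 43 came from 1 nucleus each, so single nuclei carried much of the V321L mean. *Penk* averaged 18.2 ± 36.4 CPM in WT and 199 ± 63.2 CPM in V321L mice (SD, n = 4), without overlap of the mice. *Reln* averaged 737 ± 275 and 428 ± 138 CPM in these nuclei, with overlap, and 1288 and 1414 CPM in the *Nxph1* nuclei. *Pnoc* averaged 21.2 and 275 CPM in the *Nxph1* nuclei, without overlap of the mice, and 45.7 and 155 CPM outside, where WT M1 (102 CPM) lay above V321L M1 (93.1 CPM). *Slc32a1* averaged 39.0 and 146 CPM in the *Nxph1* nuclei, and 93.2 ± 76.2 and 127 ± 81.4 CPM outside, where the mice overlapped. *Erbb4* averaged 16832 ± 2491 and 12832 ± 2389 CPM in the *Nxph1* nuclei and 6885 ± 1963 and 6579 ± 323 CPM outside, where the mice overlapped. The split was made after the values had been seen, so no test is given.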
